A study of Mus musculus with 6 samples.

Results

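The genes described here are 33 markers of endothelial cells and pericytes, the cells that build blood vessels, measured in the forebrain of mouse embryos. They were chosen by name from the 55471 gene rows of the count files, and all 33 were present and passed the filter on low counts. By role they comprised 8 endothelial junction and surface proteins, 7 endothelial receptors, 4 secreted factors, 6 transcription factors, 3 barrier and transport genes and 5 pericyte genes.

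RNA-Seq was performed on the rostral part of the telencephalic primordium at E11.5, in 3 control libraries and 3 Rx-Dicer libraries. Control embryos carried floxed Dicer alleles without Cre, although their genotype label reads WT. Rx-Dicer embryos carried the same floxed alleles together with Cre under the control of Rx, a gene of the anterior neural plate and eye field, so that Dicer, the enzyme that matures most miRNAs, was to be deleted in that neuroepithelium. Floxed mice were kept on a C57BL/6 background and Rx-Cre mice on CD1, embryos of either sex were used, and whether a library came from 1 embryo or from several was not stated, so that p-values measure the spread between these libraries.

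Endothelial cells of the embryonic brain grow in from a plexus that surrounds the neural tube, drawn by vascular endothelial growth factor from the neuroepithelium and by Wnt ligands of neural progenitors. They are held together by VE-cadherin and claudin junctions, signal through the VEGF and Tie receptors, and are wrapped by pericytes, which depend on PDGF receptor beta and Notch3. Forebrain vessels do not descend from the neuroepithelium, and whether Cre was active in any vessel cell was not measured in these files.

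Libraries held between 34471501 and 48373468 gene counts, and 3 counts, taken as the floor of detection, corresponded to between 0.0620 and 0.0870 CPM. Dicer1 was 6355, 7070 and 6270 normalised counts in control 1 to 3 and 4777, 7002 and 4644 in Rx-Dicer 1 to 3 (log2 fold change -0.26, adjusted p = 0.567). The library labelled Rx-Dicer 2 thus had Dicer1 within the control range, although a count over the whole gene does not measure the floxed exons by themselves. In vessel genes it was Rx-Dicer 3 that stood apart from the other 5 libraries.

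Expression per transcript length placed the glucose transporter gene Slc2a1 highest among the 33 genes in controls, at 149 ± 3.10 TPM (a level scaled for length and depth; SD, n = 3), followed by Notch3 at 62.0 ± 12 TPM. The tight junction gene Cldn5 (37.0 ± 4.08 TPM) and the growth factor gene Vegfa (35.4 ± 7.13 TPM) came next, and their control ranges overlapped. The lowest were Abcc9 (1.11 ± 0.168 TPM), Angpt2 (0.937 ± 0.466 TPM) and Cspg4 (0.831 ± 0.0562 TPM). In this order, neighbouring genes had overlapping control ranges except below Slc2a1, Notch3, Vegfa, Pecam1 and Flt4. Slc2a1, Vegfa and Notch3 are also expressed by neuroepithelial cells, so their levels in whole tissue do not belong to vessels alone.

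To ask whether loss of Dicer in the neuroepithelium went with a change in vessel genes, all genes were compared between genotypes with DESeq2, calling a gene at an adjusted p under 0.05 where the higher genotype exceeded the lower by more than 25%. None of the 33 genes was called higher or lower in Rx-Dicer libraries (0 of 33), against 2.93% of the 17128 genes tested, of which 1.75% were higher and 1.18% lower. The smallest adjusted p among the 33 was 0.351, and 1 of them, Angpt2, had an unadjusted p under 0.05, against 13.1% of all genes. edgeR called 0 of the 33 and found 0 with an unadjusted p under 0.05, against 0.0446% and 12.9% of all genes. The median log2 fold change of the 33 genes was 0.07, with 22 of them positive, beside -0.00087 and 49.9% positive over all genes. In no gene of the 33 did the genotypes separate without overlap, which happened in 19.3% of genes tested.

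**Figure D1:**
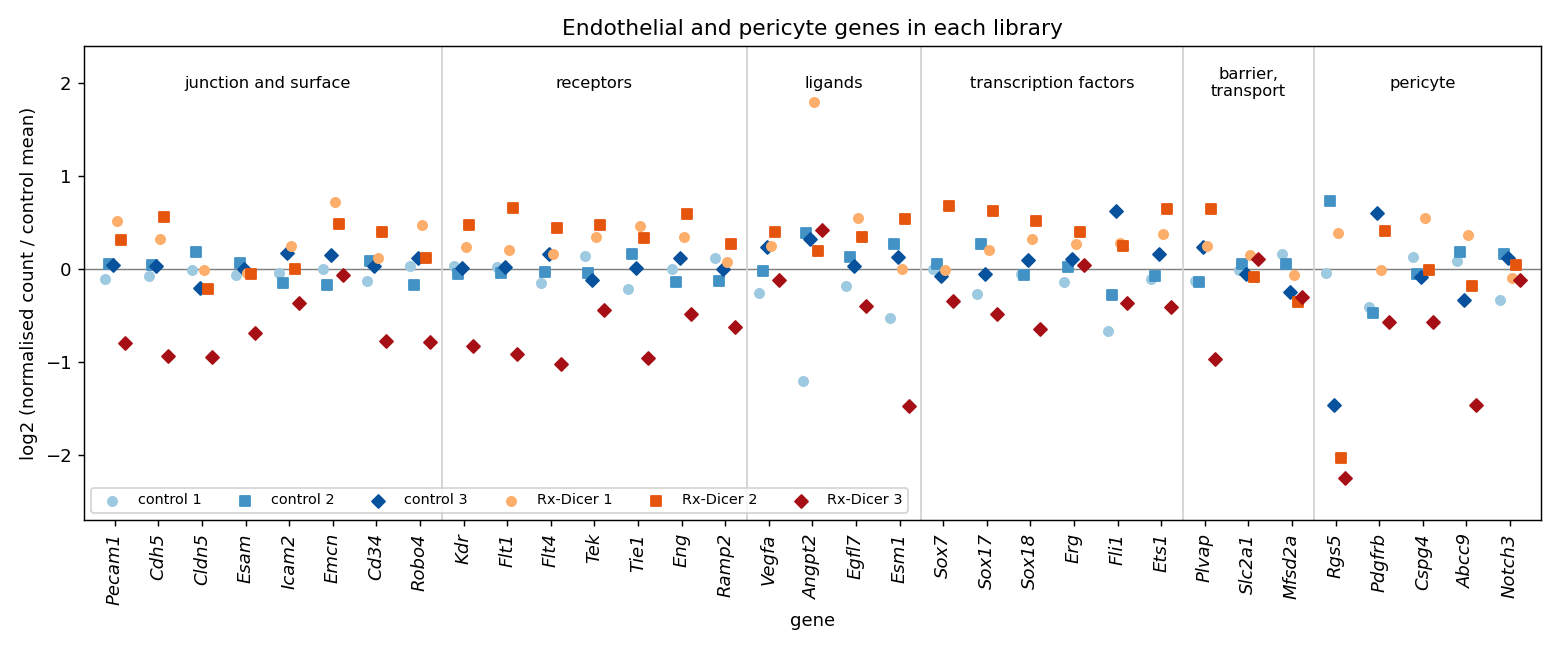
Normalised count of each of the 33 genes in each library, as log2 of the ratio to the mean of the 3 controls, grouped by role. Rx-Dicer 3 (dark red diamonds) is the lowest point for 25 genes, while Rx-Dicer 1 and 2 (orange) lie above 0 for most junction, receptor and transcription factor genes.

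The spread within the Rx-Dicer group was the prominent feature of these genes. The count of PECAM-1 (Pecam1, chr11:106654217-106750628, minus strand, GRCm38), the adhesion molecule that defines endothelium, was 815, 905 and 899 in control 1 to 3 and 1246, 1087 and 503 in Rx-Dicer 1 to 3 after normalisation. Rx-Dicer 1 and 2 were above every control and Rx-Dicer 3 below every control, so the genotypes overlapped (log2 fold change 0.11 ± 0.26 SE, DESeq2 adjusted p = 0.948). Cdh5, which encodes VE-cadherin (chr8:104101625-104144511, plus strand), had normalised counts of 1620, 1756 and 1746 in controls against 2141, 2522 and 896 in mutants. Its controls lay close together, with 2 mutant libraries above them and 1 below (0.12 ± 0.43, adjusted p = 0.971).

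The same order held for Kdr (chr5:75932827-75978458, minus strand), the main VEGF receptor of endothelium, at 1706, 1599 and 1682 normalised counts in controls against 1967, 2307 and 937 in mutants. Again Rx-Dicer 1 and 2 exceeded and Rx-Dicer 3 fell short of all controls (0.06 ± 0.25, adjusted p = 0.974). Cldn5, the claudin of brain endothelial tight junctions, had normalised counts of 850, 973 and 741 in controls and 853, 736 and 444 in mutants. Here Rx-Dicer 1 stayed within the controls, Rx-Dicer 2 was just below their range and Rx-Dicer 3 was far below it (-0.33 ± 0.22, adjusted p = 0.597).

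Endomucin, a sialomucin of capillary and venous endothelium (Emcn), was the exception among the 15 junction, surface and receptor genes. Its normalised counts were 412, 367 and 457 in controls and 678, 578 and 395 in mutants, so that Rx-Dicer 3 lay within the control range rather than below it. The log2 fold change was 0.42 ± 0.21 (adjusted p = 0.383). The other surface genes, Esam, Icam2, Cd34 and Robo4, had log2 fold changes between -0.22 and 0.03. In the other receptors, Flt1 and Flt4 of the VEGF family, Tek and Tie1 of the angiopoietin pathway, the TGF-beta co-receptor Eng and the adrenomedullin co-receptor Ramp2, the values ran from -0.04 to 0.22. Exons of Ramp2 share 33.4% of their length with Vps25 on the same strand, and reads there were left uncounted.

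Rx-Dicer 3 was the lowest of the 6 libraries for 25 of the 33 genes, and for 14 of the 15 junction, surface and receptor genes, compared with 15.7% of all genes tested. Its level was a median of 58.3% of the control mean over these 15 genes, from 49.3% for Flt4 to 95.8% for Emcn. The medians of Rx-Dicer 1 and 2 were 119% and 132%. Rx-Dicer 1 and 2 lay above, and Rx-Dicer 3 below, all controls for 13 of the 33 genes and 9 of the 15, while 1.49% of all genes showed that order. This order was noticed in the counts and then counted, and it splits a labelled group, so it describes these libraries and was given no test. In RNA from whole tissue, fewer endothelial cells and less RNA per endothelial cell cannot be told apart.

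**Figure D2:**
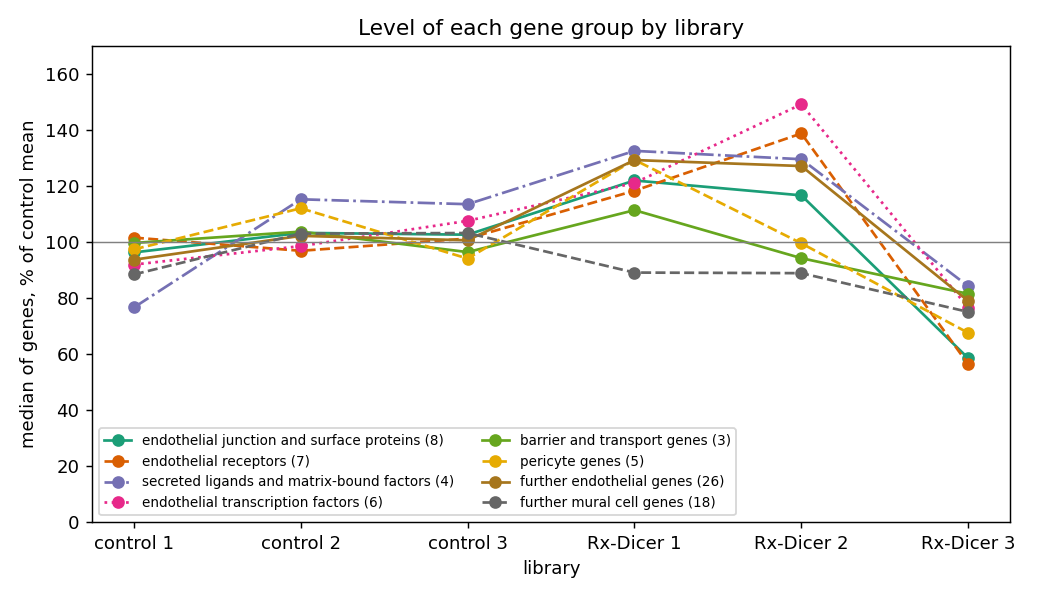
Median level of each gene group in each library, as a percentage of the mean of the controls (100%), with the number of genes in parentheses. All 6 member groups and both further lists have their lowest Rx-Dicer value in Rx-Dicer 3, with receptors at 56.4% and junction and surface genes at 58.5%.

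Among the secreted factors, the angiopoietin Angpt2, a Tie2 ligand of sprouting and remodelling vessels, had the largest fold change of the 33 genes. Its normalised counts were 24.4, 73.3 and 70.5 in controls against 196, 64.2 and 75.1 in mutants. One library, Rx-Dicer 1, was high and control 1 was low, and the remaining 4 lay together (0.99 ± 0.49, unadjusted p = 0.0421, adjusted p = 0.351 by DESeq2). Leaving out 1 library at a time gave log2 fold changes between 0.30 and 1.27.

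Egfl7, a matrix-bound factor secreted by endothelium, had normalised counts of 640, 796 and 745 in controls and 1064, 925 and 552 in mutants. It followed the order of the junction genes, with Rx-Dicer 3 lowest (0.22 ± 0.22, adjusted p = 0.807). Vegfa, the attractant of the VEGF receptors and made largely outside the endothelium, had 2059, 2430 and 2897 normalised counts in controls and 2923, 3248 and 2279 in mutants. Its value in Rx-Dicer 3 was inside the control range (0.19 ± 0.17, adjusted p = 0.763). Esm1, a proteoglycan of endothelial tip cells, was low in all libraries, from 15.2 to 61.1 normalised counts.

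Transcription factors of the endothelial programme comprised the SOX factors Sox7, Sox17 and Sox18 and the ETS factors Erg, Fli1 and Ets1. All 6 had positive log2 fold changes, from 0.08 to 0.27, and none was called. Rx-Dicer 3 was the lowest library for Sox7, Sox17, Sox18 and Ets1, and Sox18 was 370, 366 and 411 in controls and 480, 548 and 244 in mutants. For Erg and Fli1 it was not, with Erg at 103% and Fli1 at 78.0% of their control means in Rx-Dicer 3. Fli1, which blood and mesenchymal cells also express, already ranged from 476 to 1164 normalised counts among controls.

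Barrier and transport genes differed among themselves. Plvap, a diaphragm protein of fenestrated and immature vessels, had normalised counts of 734, 730 and 945 in controls and 958, 1259 and 412 in mutants, the same order as Cdh5. Slc2a1, by contrast, had 8495, 8856 and 8218 in controls and 9493, 8032 and 9230 in mutants. Its 6 values lay within 1.18-fold of each other, and Rx-Dicer 3 was not low (0.07 ± 0.12, adjusted p = 0.922). Mfsd2a, a lipid transporter of brain endothelium, had a log2 fold change of -0.23 ± 0.16 (adjusted p = 0.623), with Rx-Dicer 3 at 81.5% of the control mean.

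Pericyte genes varied within both genotypes. Rgs5, a regulator of G-protein signalling that marks pericytes, had normalised counts of 332, 567 and 124 in controls and 446, 83.5 and 72.2 in mutants. Control 3 was low, Rx-Dicer 1 was in the upper control range, and only Rx-Dicer 2 and 3 lay below all controls (-0.77 ± 0.98, adjusted p = 0.870). Pdgfrb, the receptor through which endothelium recruits pericytes, had 1179, 1126 and 2370 in controls and 1553, 2074 and 1053 in mutants. The highest library was control 3 and the genotypes overlapped (0.00 ± 0.45, DESeq2 adjusted p = 0.9997). Control 3 also had the highest sum of the mesenchyme genes described below, and whether mesenchyme contributed to the Pdgfrb counts was not tested.

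Cspg4, which encodes the NG2 proteoglycan, had normalised counts of 177, 156 and 152 in controls and 238, 161 and 109 in mutants. Rx-Dicer 1 was above and Rx-Dicer 3 below the controls (0.07 ± 0.29, adjusted p = 0.975). Abcc9, a potassium channel subunit of pericytes, was at 36.3% of the control mean in Rx-Dicer 3 (-0.24 ± 0.38, adjusted p = 0.909). Notch3 was nearly level, from 6460 to 9135 normalised counts over all libraries. Rx-Dicer 3 was the lowest library for 4 of the 5 pericyte genes, but the order with Rx-Dicer 1 and 2 above all controls occurred in 0 of 5.

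The fold changes were also computed without Rx-Dicer 3. Since that library was singled out for its low values in these same genes, leaving it out raises their fold changes by construction, and the values below describe the other 5 libraries only. Without it, the median log2 fold change of the 33 genes was 0.32 and 28 of 33 were positive, beside a median of -0.013 and 48.0% positive over all genes. Cdh5 (0.45 ± 0.13, DESeq2 adjusted p = 0.0441) and Emcn (0.61 ± 0.18, adjusted p = 0.0466) passed the threshold there, against 1.40% of genes called higher in that fit. An unadjusted p under 0.05 was found for 13 of the 33 genes, against 14.1% of all genes. edgeR on the same 5 libraries, a fit added after seeing the data, called 0 of the 33, and 2 mutant libraries remain in these fits. Without Rx-Dicer 1 instead, Rgs5 was called lower (-2.13 ± 0.53, adjusted p = 0.00476), against 2.46% of genes called lower. Leaving out Rx-Dicer 2, or any control, left 0 members called.

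**Figure D3:**
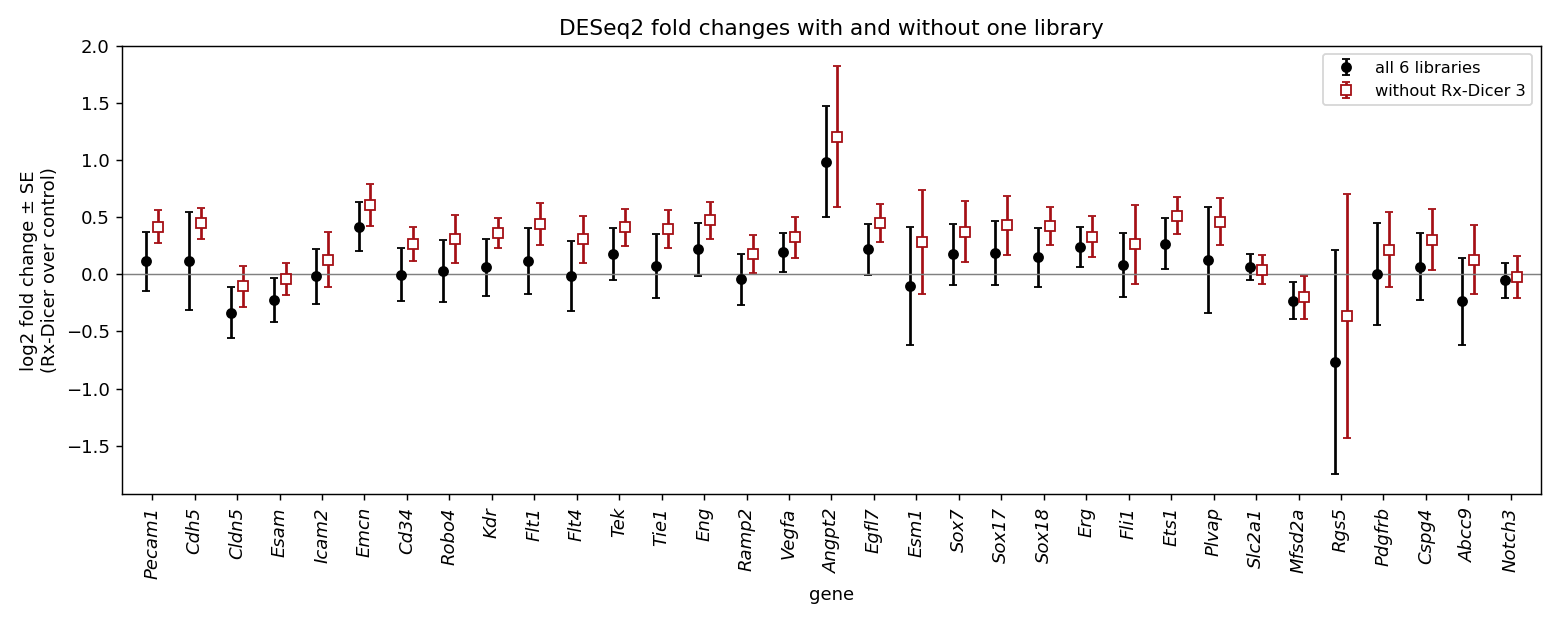
log2 fold change of Rx-Dicer over control with its standard error for each of the 33 genes, from DESeq2 on all 6 libraries (black circles) and on 5 libraries without Rx-Dicer 3 (red squares). Without that library the values of most endothelial genes move up, with Cdh5 going from 0.12 to 0.45, while Slc2a1 and Notch3 stay close to 0.

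To describe how far the endothelial genes moved as 1 block, libraries were also scaled on the 15 junction, surface and receptor genes, a scaling added after seeing the data. The size factor from these genes, divided by that from all genes, was 1.00, 0.99 and 1.04 in control 1 to 3, and 1.22, 1.31 and 0.606 in Rx-Dicer 1 to 3. Under it, Kdr became 1714, 1624 and 1617 in controls and 1616, 1776 and 1555 in mutants. For the 15 genes that set the scale, narrowing follows in part from the construction, and the median ratio of the highest to the lowest library fell from 2.25 to 1.33.

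Among the 18 members that did not set the scale, 12 had a narrower range and the median ratio went from 2.17 to 1.90. Of the 18, 4 had Rx-Dicer 1 and 2 above and Rx-Dicer 3 below all controls, and their narrowing follows in part from that order. Of these, Sox18 narrowed from 2.24 to 1.14, Plvap from 3.06 to 1.42, Ets1 from 2.08 to 1.34 and Egfl7 from 1.93 to 1.43. Among the rest of the 12, without that order, Esm1 narrowed from 4.02 to 2.05 and Abcc9 from 3.56 to 1.92. The other 6 widened, Slc2a1 from 1.18 to 2.48, Mfsd2a from 1.43 to 2.25, Vegfa from 1.58 to 1.83, Erg from 1.45 to 1.88, Rgs5 from 7.85 to 8.95 and Notch3 from 1.41 to 2.0. Under this scaling 0 of the 33 genes were called.

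**Figure D4:**
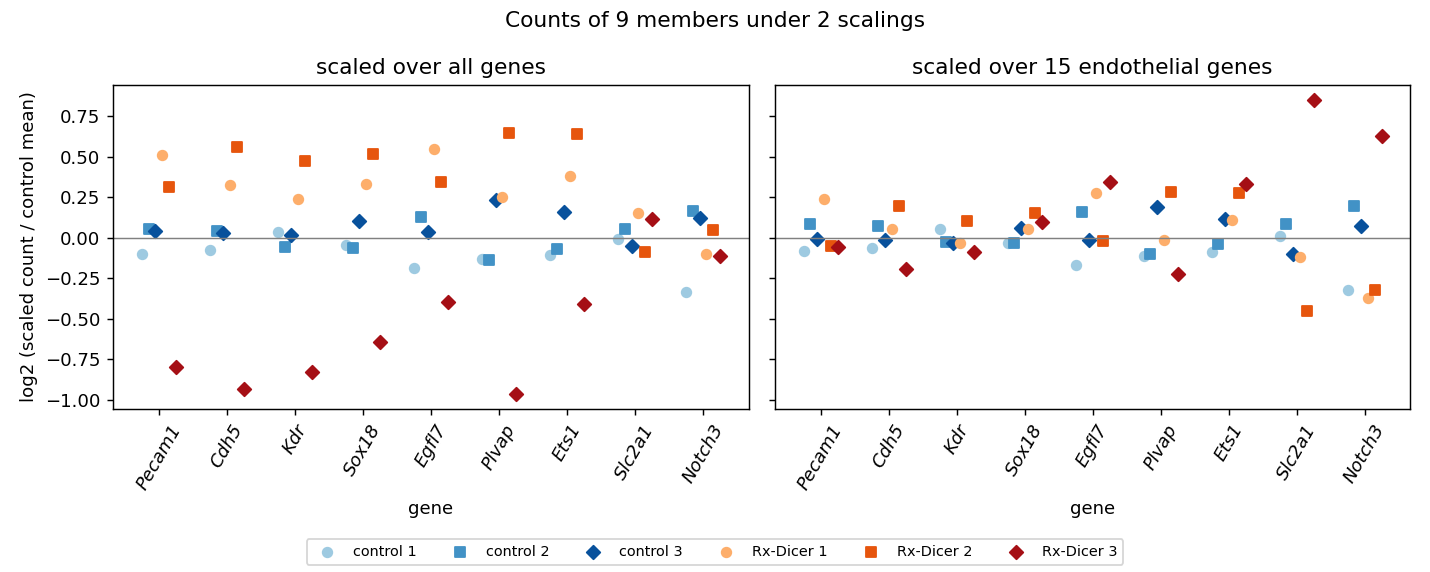
Counts of 9 genes in each library, as log2 of the ratio to the control mean, scaled over all genes (left) or over the 15 junction, surface and receptor genes (right). Sox18, Egfl7, Plvap and Ets1 did not set the scale but have the same order of libraries, so their narrowing on the right follows in part from that order. Slc2a1 and Notch3 spread out, with Rx-Dicer 3 becoming their highest library.

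Further genes of vessels and of the signals around them were read from 6 lists of 99 genes in all, 96 of which were tested. Of these, 4 were called, 3 higher and 1 lower, which is 4.17% against the 2.93% of all genes. edgeR called 0, with 12 of 97 (12.4%) at an unadjusted p under 0.05, near the 12.9% of all genes. Of these 12, 6 were among the 14 genes of the list for signalling between neural tube and vessels, described below. Among 26 further endothelial genes, 24 had a positive log2 fold change (median 0.17), against 49.9% of all genes. Of the 26, 1 was called. That gene was Podxl, a sialomucin of the luminal surface that epithelia also carry, at 2431, 2394 and 1946 normalised counts in controls and 4607, 2894 and 3162 in mutants. All mutant libraries were above all controls (0.66 ± 0.18, DESeq2 adjusted p = 0.0212). The adjusted p was above 0.05 without control 1, control 2, control 3, Rx-Dicer 1 or Rx-Dicer 3, between 0.0518 and 0.180, and 0.00489 without Rx-Dicer 2, while the log2 fold change stayed between 0.42 and 0.79 and was 0.73 without Rx-Dicer 3. Rx-Dicer 3 was the lowest library for 14 of these 26 genes, against 15.7% of all genes tested. The order with Rx-Dicer 1 and 2 above and Rx-Dicer 3 below all controls occurred in 10, against 1.49%. Values in Rx-Dicer 3 ran from 42.2% of the control mean for Mmrn2 to 178% for Tal1, with Lyl1 at 158%. Tal1 and Lyl1 had their highest counts in control 2 and Rx-Dicer 3, as did the erythroid sum described below. Whether blood cells contributed to their counts was not tested.

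Of 15 arterial and venous genes tested, Efnb2, a ligand of Eph receptors that marks arteries and is also expressed by neural progenitors, was called lower. It had 19119, 15868 and 15605 normalised counts in controls and 10845, 11930 and 11502 in mutants, with no overlap (-0.56 ± 0.12, adjusted p = 0.000959), and stayed called with each library left out in turn. None of 17 further mural cell genes was called, and 4 had a positive log2 fold change (median -0.21). Ndufa4l2 (-0.73 ± 0.32, adjusted p = 0.257) and Kcnj8 (-0.79 ± 0.44, adjusted p = 0.445), both known from pericytes, had the smallest p-values of that list. Higd1b, another pericyte marker, was at 0 in all libraries.

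Neither ligands nor hypoxia genes gave a call. Of 11 VEGF and angiopoietin ligands and co-receptors tested, Bmper (0.75 ± 0.40, adjusted p = 0.415) and Nrp1 (0.34 ± 0.25, adjusted p = 0.660) had the smallest p-values. Of 13 genes that low oxygen induces or that regulate that response, 8 had a positive log2 fold change and the median was 0.06. Vhl, which marks hypoxia factors for degradation, was at -0.24 ± 0.11 (adjusted p = 0.310), and Bnip3 at 0.32 ± 0.19 (adjusted p = 0.488).

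The list for signalling between neural tube and vessels, which also holds receptors, had 2 of the 4 calls. Reck, a membrane protein of the Wnt7 receptor complex on endothelium that other cells also express, had 533, 455 and 768 normalised counts in controls and 990, 943 and 881 in mutants. All mutants exceeded all controls (0.68 ± 0.20, adjusted p = 0.0280), but the adjusted p lay between 0.0912 and 0.226 without control 1, control 2 or any of the mutant libraries, and was 4.86e-06 without control 3, while the log2 fold change stayed between 0.53 and 0.93. Itgb8, the integrin by which neuroepithelium activates TGF-beta near vessels, had 1638, 1770 and 1815 in controls and 2424, 3065 and 2314 in mutants. It rose without overlap (0.58 ± 0.14, adjusted p = 0.00601), and stayed called with each library left out in turn (adjusted p from 0.00295 to 0.0491). In this list of 14, 7 had an unadjusted p under 0.05 by DESeq2 and 6 by edgeR, against 13.1% and 12.9% of all genes. The genotypes did not overlap in 7, against 19.3% of genes tested. The list held both rises and falls. In 10 of the 14 the log2 fold change was positive (median 0.28, from -0.59 to 0.68), against 49.9% of all genes. Rx-Dicer 3 was the lowest library for 0 of the 14. Wnt7a, a ligand of the Wnt7 receptor complex named after its values were seen, was at -0.59 ± 0.24 (adjusted p = 0.185).

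Markers of other cells that the dissection could hold were summed per library beside these values. Microglia and macrophage genes summed to 2503, 1973 and 2372 normalised counts in controls and 6811, 2398 and 4382 in mutants, and 2 of 14, the receptor genes Csf1r and Cx3cr1, were called higher. The sum of Rx-Dicer 2 lay within the control range. All 14 had a positive log2 fold change (median 1.03), against 49.9% of all genes. An unadjusted p under 0.05 was found for 12 by DESeq2 and 10 by edgeR, against 13.1% and 12.9% of all genes. Over all genes tested, DESeq2 called 1.75% higher and 1.18% lower. The log2 fold changes of Csf1r and Cx3cr1 were 0.98 ± 0.29 and 1.18 ± 0.31 with all libraries, 0.98 ± 0.39 and 1.19 ± 0.41 without Rx-Dicer 3 (adjusted p = 0.177 and 0.101), and 0.60 ± 0.30 and 0.78 ± 0.32 without Rx-Dicer 1 (adjusted p = 0.30 and 0.170). Erythroid genes, which mark blood left in the tissue, summed to between 436463 and 1015640 in controls and between 360149 and 1013870 in mutants, with Rx-Dicer 3 the highest mutant and 0 of 13 called. Mesenchyme genes summed to between 50580 and 92421 in controls and between 72430 and 90687 in mutants, with 1 of 13 called higher. Surface ectoderm genes ranged from 585 to 3424 in controls and from 891 to 2015 in mutants, with 0 of 10 called. Neural progenitor genes ranged from 168331 to 180417 and from 151254 to 175011, with 2 of 10 called lower, and young neuron genes from 72524 to 94188 and from 60971 to 80995, with 0 of 10 called. In Rx-Dicer 3, the library with the lowest endothelial sum, the erythroid and the macrophage sum were each exceeded by 1 other library. The young neuron sum was also lowest there, at 60971. Rx-Dicer 3 was the lowest library for 5 of the 10 young neuron genes, against 15.7% of all genes tested. It was lowest for 3 of 10 surface ectoderm genes, 1 of 10 neural progenitor genes and 0 genes of the erythroid, macrophage and mesenchyme lists. Low values in Rx-Dicer 3 were thus not confined to vessel genes. Whether tissue composition or dissection had a part in the endothelial values was not tested.

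**Figure D5:**
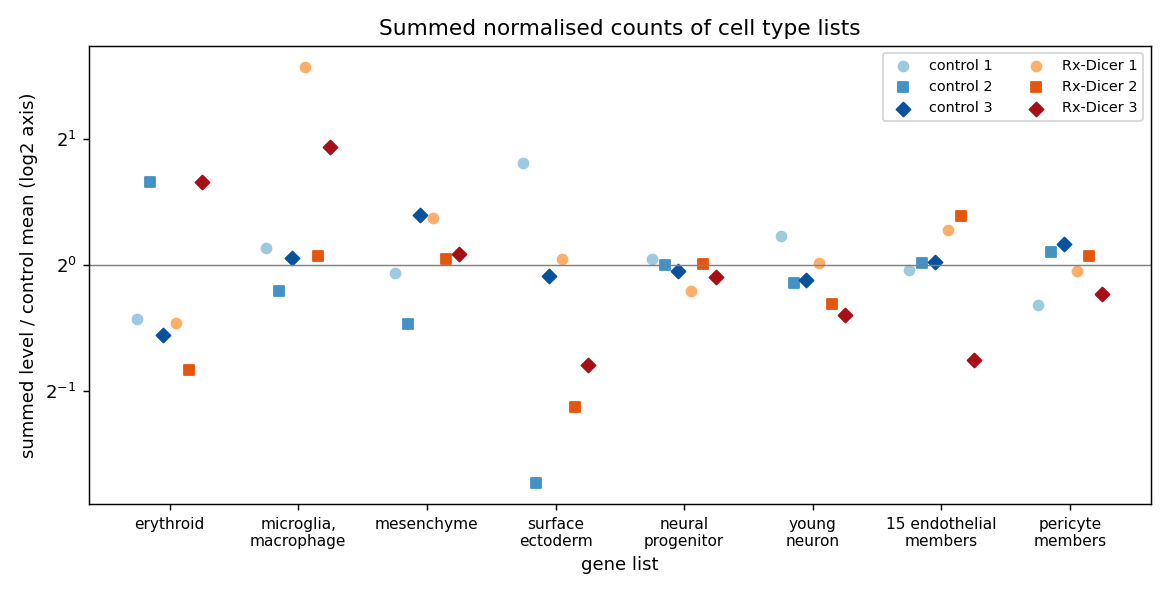
Summed normalised counts of each cell type list in each library, divided by the mean of the 3 controls, on a log2 axis. The 15 endothelial genes are tight among controls, between 11527 and 12037, and spread in mutants from 7030 in Rx-Dicer 3 to 15502 in Rx-Dicer 2, whereas the erythroid list spans 436463 to 1015640 among controls.

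Since Dicer matures miRNAs, sequence that could link these genes to miRNAs is shown for the miRNA encoded inside Egfl7, which is the endothelial miR-126, and for let-7a, of a family abundant in the embryonic brain. Mature sequences (RefSeq, GRCm38.p6) are given with the seed, bases 2 to 8, in capitals, at chr2:26591402-26591423 on the plus strand for miR-126a-3p and chr13:48538239-48538260 on the minus strand for let-7a-5p.
mmu-miR-126a-3p: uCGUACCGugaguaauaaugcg
mmu-let-7a-5p: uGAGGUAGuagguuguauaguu
The complement of the let-7 seed, CTACCTC, was found on the transcript strand in the 3′ UTR of 3 of the 33 genes (9.09%), and in 12.1% of 14076 tested genes with a 3′ UTR. The complement of the miR-126 seed, CGGTACG, was in 0 of 33 and in 0.298% of genes. The let-7 words of the members and of Itgb8, the only one of the 4 called vessel-related genes that held one, are shown in capitals with their flanks. They lie at chr9:37537890-37537918 (plus strand, Esam), chr11:101259232-101259260 (plus, Ramp2), chr6:142588427-142588455 (minus, Abcc9) and chr12:119161793-119161821 (minus, Itgb8) of GRCm38.
Esam: gtcctttgctcCTACCTCcttctattgtt
Ramp2: cgtttcttgccCTACCTCctttcccatcc
Abcc9: cgttgcttgggCTACCTCcgatgacagaa
Itgb8: acaataatactCTACCTCttgaatctgta
Esam, Ramp2 and Abcc9 had log2 fold changes of -0.22, -0.04 and -0.24, none called. Exons of Ramp2 share 33.4% of their length with Vps25, and whether its word lies in the shared part was not examined. The share of members with the word was near that of all genes, and a match describes letters rather than a site in use.

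Promoters of the members were searched for words of ETS, SOX and hypoxia factors in the 250 bases before each start site. RefSeq promoters (GRCm38.p6) matched 20 of the 33 genes, whether or not they followed the order of the libraries, and gave 25 promoters because some genes have several start sites. The ETS words AGGAAG or CGGAAG, on either strand, were in 9 of 25 (36%) and in 39.2% of 32851 promoters. The SOX words ACAATG or AACAAT were in 3 of 25 (12%) and in 16.2%, and the hypoxia factor word ACGTG in 4 of 25 (16%) and in 16.6%, shares near those of promoters at large. Kdr and Tek, which followed the endothelial order of the libraries, held 0 ETS words, and Emcn, which did not, held 2. Flt1 and Eng, which followed that order, are shown with ETS words in capitals, and Mfsd2a, which did not, with hypoxia words in capitals. Their positions are chr5:147726012-147726261 (minus strand), chr2:32646345-32646594 (plus) and chr4:122961189-122961438 (minus).
Flt1: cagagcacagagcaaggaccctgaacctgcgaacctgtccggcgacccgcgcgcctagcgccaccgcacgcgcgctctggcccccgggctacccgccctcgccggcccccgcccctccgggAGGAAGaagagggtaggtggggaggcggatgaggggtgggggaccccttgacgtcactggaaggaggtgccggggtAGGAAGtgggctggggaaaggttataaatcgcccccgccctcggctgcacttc
Eng: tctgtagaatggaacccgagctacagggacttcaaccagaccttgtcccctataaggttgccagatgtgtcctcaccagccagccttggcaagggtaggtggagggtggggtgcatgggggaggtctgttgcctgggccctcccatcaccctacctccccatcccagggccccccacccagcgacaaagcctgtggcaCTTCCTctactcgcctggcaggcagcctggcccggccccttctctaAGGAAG
Mfsd2a: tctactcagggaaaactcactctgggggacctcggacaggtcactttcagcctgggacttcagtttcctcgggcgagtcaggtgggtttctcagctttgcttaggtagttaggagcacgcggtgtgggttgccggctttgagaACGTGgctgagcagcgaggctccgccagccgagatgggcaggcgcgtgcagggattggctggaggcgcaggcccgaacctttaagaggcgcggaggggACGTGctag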

How the data were processed

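RNA-Seq libraries (NEB Next Ultra Directional kit, paired-end) were trimmed by the authors with Trim Galore 0.6.5, aligned to GRCm38.p6 with HISAT2 and counted with HTSeq 0.12.4 (union mode, reverse strand). The deposited values are raw read counts per gene, in 2 files per sample for 6 samples, and the 2 files were summed here. The 5 tally rows, such as ambiguous or unaligned reads, held 24.9% to 31.0% of reads and were left out. The detection floor covers counting error only, whereas SE and SD values include the spread between libraries.

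DESeq2 1.42.0 (Wald test, median-of-ratios size factors, independent filtering, Benjamini-Hochberg over all genes; R 4.3.3) was the main fit, with the authors' thresholds. edgeR 4.0.16 (quasi-likelihood, TMM, at least 10 counts in 3 samples) and other scalings, filters, file subsets and left-out libraries were alternatives. TPM used GENCODE M21 exon lengths. Fits were tested on simulated data.

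Members and lists were chosen with earlier results of these data known. Values per library are given for called genes, genes at an unadjusted p under 0.05 and defining markers, and from each further list the called genes or the 2 with the smallest p. The paper compared mutants with control littermates, but which samples shared a litter was not stated. Same-numbered samples came from different embryos, and their deviations correlated at 0.29, -0.01 and -0.27, so the numbers were not treated as pairs.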

Additional observations from a re-analysis of the deposited data

How the results depend on the processing

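The count of 0 members called held under every other fit, scaling and filter tried and when any control or Rx-Dicer 2 was left out, and ranged from 0 to 2 over the left-out libraries (0 to 2 higher, 0 to 1 lower, Cdh5 and Emcn without Rx-Dicer 3, Rgs5 without Rx-Dicer 1). The 4 calls among the further vessel genes became 0 with edgeR, 0 under the endothelial scaling and 0 with edgeR on 5 libraries, the last 2 chosen after seeing the data, and 2 to 5 with 1 library left out, the 2 being without control 2. The replicate block gave 0 called members and changed 1 call among the further genes, that of Reck, but whether same-numbered samples shared a litter was not stated. Leaving out 1 library at a time reversed the sign of 21 members near 0, with log2 fold changes from -0.14 to 0.42 for Pecam1, -0.16 to 0.45 for Cdh5, -0.17 to 0.13 for Icam2, -0.25 to 0.27 for Cd34, -0.26 to 0.31 for Robo4, -0.19 to 0.36 for Kdr, -0.24 to 0.44 for Flt1, -0.30 to 0.31 for Flt4, -0.18 to 0.40 for Tie1, -0.0016 to 0.48 for Eng, -0.22 to 0.18 for Ramp2, -0.55 to 0.28 for Esm1, -0.16 to 0.38 for Sox7, -0.092 to 0.43 for Sox17, -0.071 to 0.43 for Sox18, -0.16 to 0.54 for Fli1, -0.22 to 0.46 for Plvap, -0.25 to 0.44 for Pdgfrb, -0.26 to 0.31 for Cspg4, -0.68 to 0.13 for Abcc9 and -0.20 to 0.038 for Notch3. Other sign changes of log2 fold changes were found. With a replicate block, Cdh5 was at -0.0041, Robo4 at -0.046, Kdr at -0.031, Flt1 at -0.0085, Tie1 at -0.037. With total count scaling, Icam2 was at 0.0047, Cd34 at 0.030, Flt4 at 0.020. With the endothelial scaling, Icam2 was at 0.023, Robo4 at -0.013, Kdr at -0.0018, Tie1 at -0.011, Notch3 at 0.057. With edgeR on 5 libraries without Rx-Dicer 3, Icam2 was at 0.14, Cd34 at 0.28, Flt4 at 0.32, Ramp2 at 0.19, Esm1 at 0.30, Abcc9 at 0.14. With edgeR, Cd34 was at 0.0073. With the low count filter, Cd34 was at 0.0047. With the first file alone, Cd34 was at 0.0011, Robo4 at -0.065, Flt4 at 0.11, Esm1 at 0.0099, Pdgfrb at -0.014. With the second file alone, Cd34 was at 0.0028, Sox18 at -0.013, Cspg4 at -0.059. Of these members, Cdh5 was called in 1 of the fits, without Rx-Dicer 3, and what caused the shifts was not tested. With 3 libraries per genotype, standard errors of the members ran from 0.12 to 0.98 in log2, which limits the changes that could be detected.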
